A study of Arabidopsis thaliana with 6 samples.

Results

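The genes described here are 10 CC-type glutaredoxins of Arabidopsis thaliana that lie outside the tandem cluster of this family on chromosome 4. They are ROXY1 (AT3G02000), ROXY2 (AT5G14070), AT1G03020, AT1G06830, AT2G30540, AT2G47870, AT3G62930, AT3G62950, AT3G62960 and AT5G18600. They are 10 of the 16534 genes that a probe set tested here named alone, and each was found as the probe set that named it and no other gene. The probe set of a gene was to be chosen by its mean intensity, the brightest being taken. Each of the 10 genes had 1 such tested probe set, so intensity decided none of them. The study compared whole 14-day-old plants of the Columbia accession, as wild type (WT, 3 arrays), with ara6-1, a knock-out mutant of the RAB5 GTPase gene ARA6 (3 arrays). Seeds of both genotypes were chilled for 1 day at 4 °C and the plants were then raised on MS medium at 23 °C without a dark period. The 3 arrays of a group are labelled biological replicates; whether they came from separate sowings is not stated, so the p-values measure only the spread between these samples. ara6-1 was the one mutant line measured.

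Glutaredoxins are small oxidoreductases that use glutathione to reduce disulphides or to remove glutathione from proteins. CC-type members, named for a pair of neighbouring cysteines in the active site, are found in land plants. They bind transcription factors of the TGA class in the nucleus, and family members are known from petal and anther development, from defence signalling and from the response to nitrogen supply. ROXY1 and ROXY2 are the members known for flower development, ROXY1 for petals and both together for anthers.

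Values are deposited probe set intensities, turned into log2. A difference of 1 on this scale is a doubling. Array medians ran from 28.8 to 29.2 in linear intensity over 28501 tested probe sets, and 3 arrays per group set the precision. The 5th percentile of the arrays, taken here as their low end because no detection call was used, lay at log2 intensities of 1.54 to 1.68. Since each probe set has its own affinity, levels of different genes are not ranked against each other. WT replicate 3 and ara6-1 replicate 1 stood further from their group means than the other arrays did, with SDs of 0.169 and 0.165 against 0.12 to 0.126 over probe sets above the median intensity. The ARA6 transcript was lower in the mutant, with log2 intensities of 8.24 ± 0.22 (SD, n = 3) for WT plants and 7.01 ± 0.13 (SD, n = 3) for the mutant, so that a signal remained. Its log2 fold change was -1.24 (adjusted p = 0.14 in limma), so the mutated gene itself did not pass an adjusted p of 0.05 in the fit reported. With a prior variance that follows intensity, ARA6 passed (adjusted p = 0.00615 in limma). The plants held leaf and root tissue by their markers, with LHCB4.1, a light-harvesting protein gene, at 9.74 in WT and PYK10, a root beta-glucosidase gene, at 12.22 (log2 intensity).

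Most of the 10 genes read lower in ara6-1, and none passed the test over the whole array. In 9 of the 10 the log2 fold change, mutant over WT, was below 0, against 50.4% of all tested probe sets, though ROXY1 and AT3G62960 turned to 0.04 and 0.06 when quantile normalization was applied again. The values ran from -1.01 for AT1G06830 to 0.08 for ROXY2, with a median of -0.45, while the median over all probe sets was -0.002. In 4 genes, AT1G06830, AT2G30540, AT5G18600 and AT2G47870, every mutant array lay below every WT array. Such a separation in this direction was seen in 7.85% of all probe sets, and the opposite one, found in 0 of the 10, in 7.81%. After Benjamini-Hochberg adjustment over 28501 probe sets in limma, 0 of the 10 passed an adjusted p of 0.05, where 0.0105% of all probe sets did. Without adjustment 5 of the 10 had a p under 0.05 in limma, all of them lower in ara6-1, against 5.39% of all probe sets. An exact permutation test of 3 arrays against 3 cannot give a two-sided p under 0.1. The 10 genes were chosen with results of these data known, so their shared direction is a description.

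**Figure D1:**
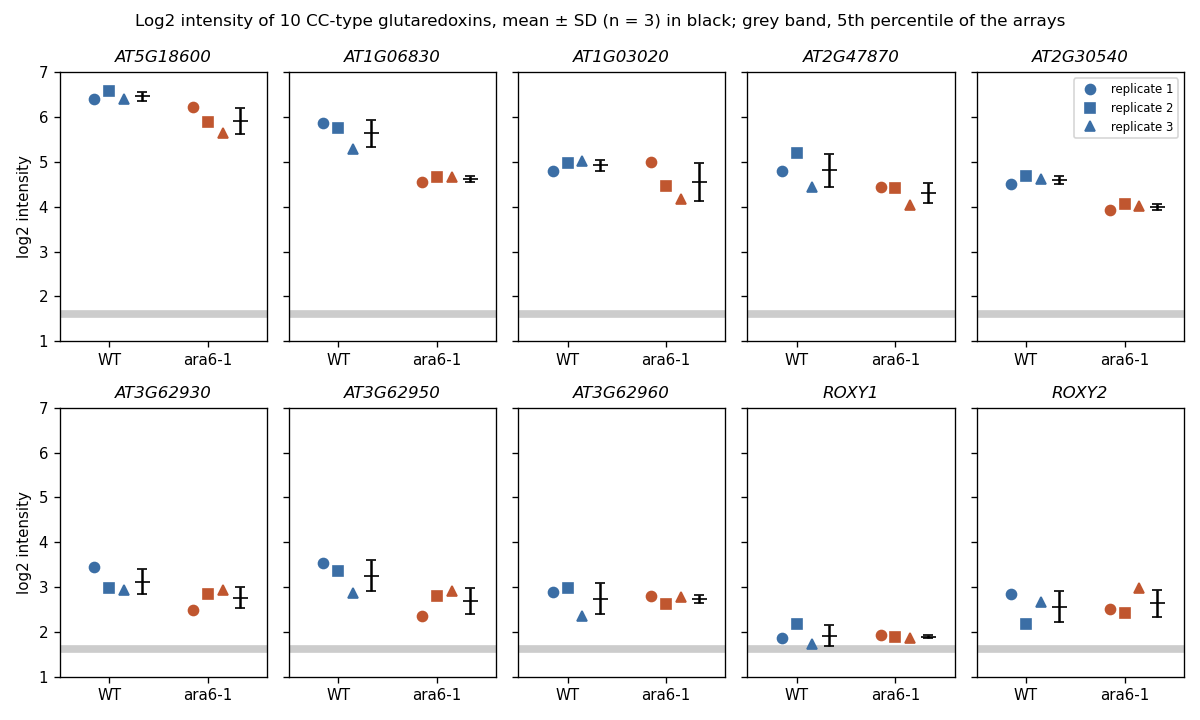
Log2 intensity of each of the 10 genes on each array, blue for WT and orange for ara6-1, with the replicate number as the symbol and the mean ± SD (n = 3) in black. The grey band is the range of the 5th percentile over the arrays, at 1.54 to 1.68; AT1G06830 shows the widest gap between the groups, and ROXY1 sits next to the band.

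AT1G06830 had the largest difference of the 10. In log2 it read 5.86, 5.75 and 5.30 on WT arrays 1 to 3, against 4.55, 4.67 and 4.66 on the mutant arrays 1 to 3. The mutant arrays lay close together and all below the lowest WT array, with a gap of 0.63 between the groups. In linear intensity the WT arrays read 58, 53.9 and 39.4, and the mutant arrays 23.5, 25.5 and 25.3. The group means were 5.64 ± 0.30 and 4.63 ± 0.07 (SD, n = 3 each). The log2 fold change was -1.01 (SE 0.16, 95% interval -1.37 to -0.64), or 2.01-fold lower. It was the 19th smallest of the 28501 p-values in limma (unadjusted p = 2.818e-04, adjusted p = 0.423). Letting the prior variance depend on intensity brought the adjusted p in limma to 0.076, the lowest of the alternatives for this gene, and with that setting 0 of the 10 genes passed, beside 0.0561% of all probe sets. WT replicate 3, one of the arrays that stood apart, was the WT array nearest to the mutant, and without it the log2 fold change was -1.18.

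AT2G30540 had a smaller but more even difference. WT replicates 1 to 3 read 4.50, 4.69 and 4.61 in log2 intensity, and ara6-1 replicates 1 to 3 read 3.93, 4.06 and 4.02. Both groups were tight and a gap of 0.44 separated them. Their means were 4.60 ± 0.10 and 4.00 ± 0.07 (SD, n = 3 each), and the residual SD of 0.09 was below the median of all probe sets (0.167). The log2 fold change was -0.60 (SE 0.10, 95% interval -0.84 to -0.37, adjusted p = 0.435 in limma), 1.52-fold lower, and it stayed between -0.65 and -0.55 with any single array left out. AT1G06830 and AT2G30540 were the 2 of the 10 that were both separated and at least 1.5-fold lower in the mutant, as 0.674% of all probe sets were.

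AT5G18600 was also lower in all mutant arrays, with more spread among them. It stood at log2 intensities of 6.41, 6.58 and 6.40 on WT arrays 1 to 3, and at 6.22, 5.89 and 5.65 on the mutant arrays 1 to 3. The WT arrays agreed closely, while ara6-1 replicate 1 came within 0.18 of them and replicate 3 was farthest. Means were 6.46 ± 0.10 and 5.92 ± 0.29 (SD, n = 3 each), and the log2 fold change was -0.54 (SE 0.16, 95% interval -0.91 to -0.18, adjusted p = 0.517 in limma). Without ara6-1 replicate 1, the other array that stood apart, it was -0.69.

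For AT2G47870 the separation was very narrow. The log2 intensities were 4.79, 5.19 and 4.45 on WT arrays 1 to 3, against 4.44, 4.42 and 4.04 on the mutant arrays 1 to 3. WT replicate 3 and ara6-1 replicate 1 differed by 0.01, and WT replicate 2 was the high array. The log2 fold change was -0.51 (SE 0.20, 95% interval -0.99 to -0.03, adjusted p = 0.552 in limma), and it was -0.32 without WT replicate 2. In the TAIR10.1 gene order this gene adjoins AT2G47880, a CC-type glutaredoxin outside the 10, whose log2 fold change was -0.08 with a 95% interval of -0.83 to 0.66 (limma, adjusted p = 0.949).

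AT1G03020 gave mixed arrays. It read 4.79, 4.97 and 5.02 on WT arrays 1 to 3, against 5.0, 4.47 and 4.17 on the mutant arrays 1 to 3, in log2 intensity. The first mutant array lay within the WT range and the other two lay below it, so the groups overlapped. The log2 fold change was -0.38 (SE 0.21, 95% interval -0.87 to 0.10, adjusted p = 0.611 in limma). Without ara6-1 replicate 1 it was -0.61, and without ara6-1 replicate 3 it was -0.20.

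AT3G62930, AT3G62950 and AT3G62960 sit within a short stretch of chromosome 3, with AT3G62940, which has no named probe set here, between the first and the second, and no protein-coding gene between the second and the third. All 3 gave signals in the lower part of the arrays, with means at percentiles 25.8, 26.2 and 22.9 of all tested probe sets. AT3G62950 had log2 intensities of 3.54, 3.35 and 2.87 on WT arrays 1 to 3 and of 2.35, 2.79 and 2.91 on the mutant arrays 1 to 3. WT replicate 3 and ara6-1 replicate 3 overlapped by 0.04, and the other arrays were separated. The fold change on the log2 scale was -0.57 (SE 0.21, 95% interval -1.07 to -0.07, adjusted p = 0.544 in limma).

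AT3G62930 followed a similar order, with 3.45, 2.98 and 2.93 on WT arrays 1 to 3, against 2.49, 2.85 and 2.93 on the mutant arrays 1 to 3 (log2 intensity). Its lowest WT and highest mutant intensity were the same deposited value, 7.6, and the log2 fold change was -0.36 (SE 0.18, 95% interval -0.79 to 0.06, adjusted p = 0.589 in limma). It was -0.20 without WT replicate 1 and -0.23 without ara6-1 replicate 1. AT3G62960 read 2.89, 2.98 and 2.35 on WT arrays 1 to 3, against 2.79, 2.63 and 2.77 on the mutant arrays 1 to 3. Here the mutant arrays all lay within the WT range. The log2 fold change was -0.01 (SE 0.17, 95% interval -0.42 to 0.39, adjusted p = 0.986 in limma), and its sign turned with single arrays. With a pseudocount of 16, which by its construction shrinks differences, most of all in dim probe sets, the log2 fold change was -0.19 for AT3G62950 and -0.12 for AT3G62930. Brighter members shrank as well, AT2G30540 to -0.33 and AT1G06830 to -0.69, so this setting cannot show how certain a difference is. At the low intensities of AT3G62950 and AT3G62930 the size of the differences is uncertain. Differences in size between these 3 neighbours were not tested, and whether their probes also bind each other's transcripts was not analysed here.

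The flower genes ROXY1 and ROXY2 gave signals close to the arrays' low end in both genotypes. ROXY1 read 1.85, 2.17 and 1.72 on WT arrays 1 to 3, against 1.93, 1.89 and 1.85 on the mutant arrays 1 to 3, in log2 intensity. These are linear intensities of 3.3 to 4.5, beside a 5th percentile of 2.9 to 3.2, and the mutant arrays lay inside the WT range. ROXY2 read 2.85, 2.17 and 2.66 on WT arrays 1 to 3, against 2.51, 2.41 and 2.98 on the mutant arrays 1 to 3. The highest and the lowest ROXY2 value came from different genotypes and the groups overlapped. The log2 fold changes were -0.03 (95% interval -0.34 to 0.28) for ROXY1 and 0.08 (95% interval -0.43 to 0.58) for ROXY2, with adjusted p-values in limma of 0.961 and 0.929. At such intensities the size of any difference is not determined. The intensities of AT3G62930, AT3G62950 and AT3G62960 overlapped those of ROXY2, so the same limit applies to them. Of 6 listed genes of petal and anther development, 3 were measured and 0 passed, namely SPL (0.12), AMS (-0.77) and PTL (0.22), all with mean log2 intensities under 3.5 in both groups and all with overlapping groups (limma, smallest adjusted p = 0.547).

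**Figure D2:**
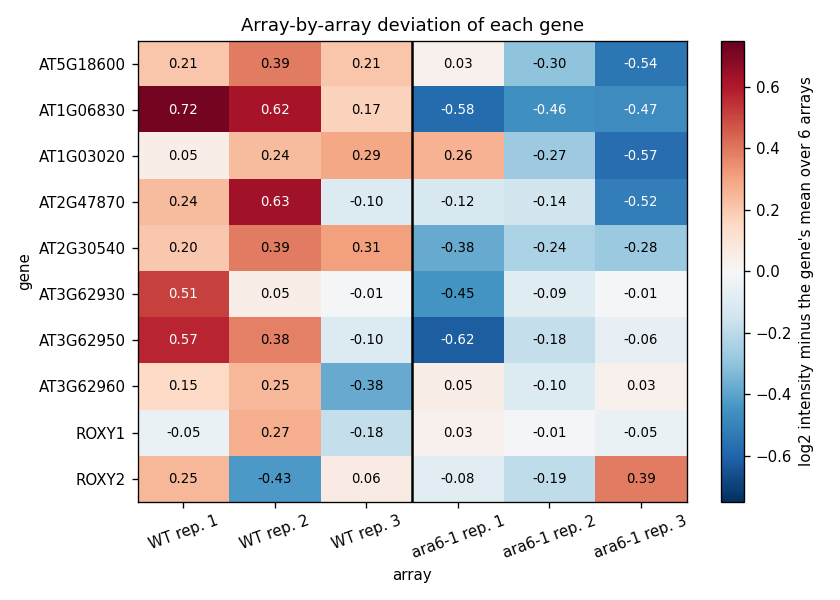
Log2 intensity of each of the 10 genes (rows) on each array (columns), minus that gene's mean over the 6 arrays; red is above the mean and blue below. The first 2 WT arrays are above the mean in most rows, and the median over the 10 genes is 0.23 and 0.33 there, 0.03 in WT replicate 3, and -0.10, -0.18 and -0.17 in the mutant arrays.

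Array by array, the 10 genes did not share one order. After centring each gene on its own mean, the median over the 10 was 0.23, 0.33 and 0.03 on WT arrays 1 to 3, against -0.10, -0.18 and -0.17 on the mutant arrays 1 to 3. WT replicate 2 was the highest array for 5 genes and WT replicate 1 for 3. The lowest array was ara6-1 replicate 1 for 4 genes and ara6-1 replicate 3 for 3. The count of 4 separated genes moved with single arrays. It was 7 without WT replicate 3, where 14.3% of all probe sets were separated in this direction, and 8 without WT replicate 3 and ara6-1 replicate 1 together, where 23.0% were. In the latter setting 9 of the 10 log2 fold changes were below 0, against 50.8% of all probe sets.

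**Figure D3:**
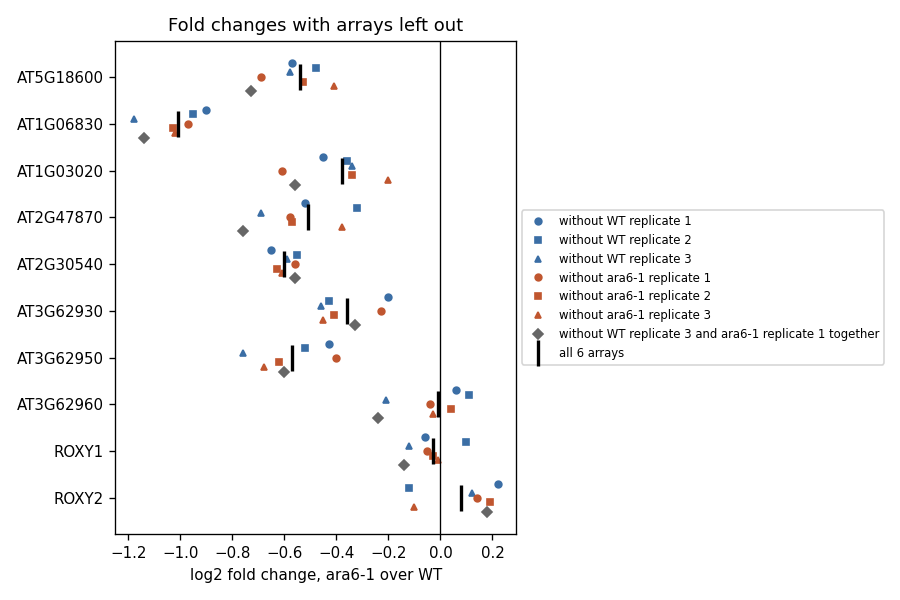
Log2 fold change, ara6-1 over WT, of each of the 10 genes with all 6 arrays (black bar), with 1 array left out (blue for a WT array, orange for a mutant array) and without both WT replicate 3 and ara6-1 replicate 1 (grey). AT1G06830 ranges from -1.18 to -0.90 with 1 array left out, and the points of AT3G62960, ROXY1 and ROXY2 lie on both sides of 0.

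The rest of the glutaredoxin family was read beside the 10 genes. Of 11 other CC-type genes listed, 10 were measured and 0 passed over all probe sets (limma, smallest adjusted p = 0.435). The 5 genes of the chromosome 4 cluster had log2 fold changes from -1.37 for AT4G15700 to -0.29 for AT4G15660, with a median of -0.59. Of the 5, 2 were lower in every mutant array than in every WT array, beside 7.85% of all probe sets. AT4G15700 had log2 intensities of 6.06 ± 0.18 (SD, n = 3) for WT and 4.70 ± 0.43 (SD, n = 3) for the mutant. The other 5 had log2 fold changes between -0.14 and 0.32, with a median of -0.07, and 3 of them were below 0. AT5G11930 read higher in the mutant, at 5.14 in WT and 5.31 in ara6-1 (log2 fold change 0.17, adjusted p = 0.769 in limma). In 0 of these 5 were the groups separated, which among so few genes is near the 7.85% (lower) and 7.81% (higher) of all probe sets. Among these, GRX480 (AT1G28480), known to bind TGA factors in jasmonate and salicylic acid signalling, gave a dim signal, at 1.61 in WT and 1.47 in ara6-1. The difference between the 10 genes and either of these groups was not tested.

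Glutaredoxins of the CPYC class gave log2 fold changes close to 0. Of 10 listed genes of the CPYC and CGFS classes, 5 were measured, all of them CPYC genes. Of these 0 passed in limma (smallest adjusted p = 0.696). The groups were separated in 0 of the 5, beside 7.85% (lower) and 7.81% (higher) of all probe sets. Their log2 fold changes lay between -0.14 for AT1G77370 and 0.11 for GRXC1 (AT5G63030), with a median of -0.09. Between them lay AT5G20500 and GrxC5 (AT4G28730), a chloroplast glutaredoxin gene, both at -0.09. The glutathione reductase genes GR1 (AT3G24170) and GR (AT3G54660), whose enzymes keep glutathione reduced, had log2 fold changes of 0.07 (95% interval -0.15 to 0.28) and 0.06 (95% interval -0.17 to 0.29), with neither past the threshold in limma (smallest adjusted p = 0.833). Of the 11 listed genes of CEP receptors, nitrate uptake and assimilation, the 1 measured was AT4G32950, at -0.03 (log2 fold change; adjusted p = 0.975 in limma). The lists of TGA factors and TOPLESS corepressors had 0 genes measured under a name, so their transcripts are not analysed here.

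**Figure D4:**
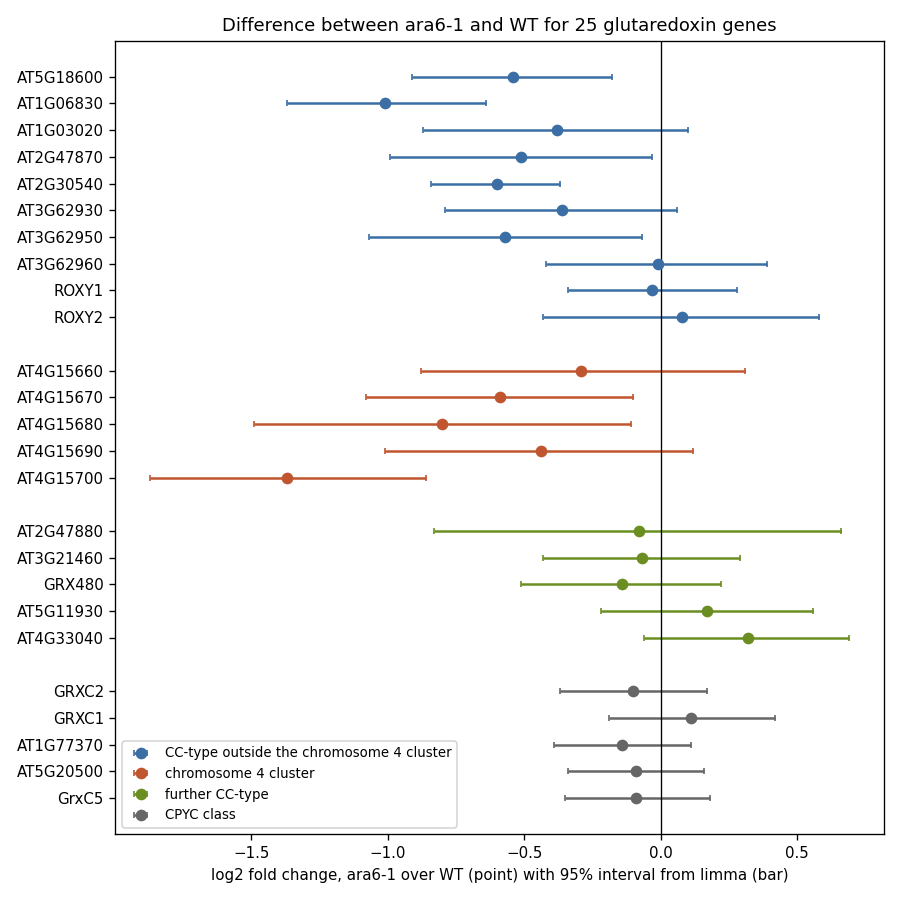
Log2 fold change, ara6-1 over WT, with its 95% interval from limma, for the 10 genes (blue), the chromosome 4 cluster (orange), the other measured CC-type genes (green) and CPYC-class glutaredoxins (grey). Intervals of AT1G06830 and AT4G15700 lie farthest below 0, and those of the grey genes, between -0.39 and 0.42, all include 0.

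Genes next to the 10 on the chromosomes were read as well. Of the 32 protein-coding genes within 2 places of a member in the TAIR10.1 order, CC-type genes aside, 19 were measured, with log2 fold changes from -0.26 to 0.30 and a median of 0.04. The measured neighbours of AT1G06830, for example, were AT1G06810 with 0.21, AT1G06840 with 0.11 and bZIP52 with 0.30 (limma, adjusted p = 0.577, 0.714 and 0.591).

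The leaf marker and 1 of the 2 root markers measured read slightly higher on all mutant arrays, as 7.81% of all probe sets did. LHCB4.1, the 1 of 4 leaf markers measured, read 846 to 870 in WT and 897 to 1057 in ara6-1 in linear intensity. The 2 measured of 4 root markers, PYK10 and EXPA7, summed to 4777 to 4903 in WT and 5065 to 5307 in ara6-1. That sum is nearly all PYK10, and the groups of EXPA7 overlapped, with 51.7, 43.6 and 45.9 in WT and 55.6, 50.8 and 45.1 in the mutant. None of the 3 was at 0 and 0 of them passed in limma (smallest adjusted p = 0.634). Markers of phloem companion cells and of floral buds were not measured under a gene name. Their part in the lower CC-type signals was not tested, and in whole plants fewer cells of a type and less RNA per cell cannot be told apart.

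The profiles most like that of AT1G06830 and of AT5G18600 over the 6 arrays were looked up among 7291 named genes at or above the median intensity. Likeness was the root mean square difference of the 2 centred log2 profiles. Closest to AT1G06830 were AT7SL-1 (AT4G02970, difference 0.199), which encodes the RNA of the signal recognition particle, AT3G15450 (0.218), AT2G11271 (0.258), AT3G59070 (0.261) and the serine carboxypeptidase-like gene scpl50 (AT1G15000, 0.262). Their own log2 fold changes were between -0.86 and -0.53, and none passed (limma, smallest adjusted p = 0.168). Closest to AT5G18600 were AT5G03345 (0.073), the cytokinin response regulator gene RR16 (AT2G40670, 0.0742), AT2G39000 (0.0853), AT1G26665 (0.0968) and Fes1C (AT5G02150, 0.0973), with log2 fold changes between -0.55 and -0.38. Among the 10 themselves, the closest pair outside the dimmest 25% of probe sets was AT1G03020 and AT5G18600 (0.137), followed by AT3G62930 and AT3G62950 (0.165). All these genes share the same 6 arrays, and the genotype difference is part of the profile compared.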

How the data were processed

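Biotin-labelled cDNA of total RNA was hybridized to Affymetrix whole-transcript arrays, per the labels' protocols. The deposited values were the authors' linear intensities per probe set, for which the submitters' processing notes name Affymetrix Expression Console 1.3; summarization and build are not given in the sources used here. All columns matched a sample. Array medians were nearly equal, so no further normalization was applied. Of 38408 rows, the 28501 written to 1 decimal or fewer were tested, and 9907 others of unstated kind were left out. Gene names came from the platform's table, updated through RefSeq (TAIR10.1). 16696 tested probe sets named 1 gene. All 10 members were found, and 7 lay outside the dimmest 25% (mean log2 intensity under 2.88).

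Intensities were turned into log2 with no pseudocount and compared in R 4.3.3 with limma 3.58.1 (lmFit and eBayes, 4 residual and 3.31 prior degrees of freedom), two-sided, with Benjamini-Hochberg adjustment over all tested probe sets. The fit was tested on simulated data, with changes placed in probe sets above the median intensity. Recovery was required only for changes larger than any of the members, so the test does not cover dim genes or changes of the members' size. Members and gene lists were chosen with earlier results of these data known. Named genes were all members, and per list those past the threshold or else the 3 with the highest mean intensity. Other list genes (GRXC1, GRX480, AT2G47880, neighbours, the markers) were added after their values were seen. Alternatives changed the filter, normalization, variance model, weights, block, arrays, rows and pseudocount.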

Additional observations from a re-analysis of the deposited data

How the results depend on the processing

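None of the 10 genes passed an adjusted p of 0.05 in limma in any of the 16 alternative fits, nor 0.1 in the fit reported; AT1G06830 had 0.076 with a prior variance that follows intensity. At an unadjusted p under 0.05, limma gave 5 of the 10 beside 9.01% of all probe sets, and in the alternatives 3 to 6 beside 6.11% to 12.7% (6 beside 12.7% without WT replicate 3 and ara6-1 replicate 1 together, 3 beside 7.03% without WT replicate 1). Of 157 log2 fold changes of single genes in alternative fits, 149 kept their direction and 8 reversed. All 8 were in AT3G62960, ROXY1 and ROXY2, dim genes whose log2 fold changes in the fit reported were -0.01, -0.03 and 0.08. AT3G62930 and AT3G62950, only slightly brighter than AT3G62960, kept their direction. AT3G62960 turned to 0.06 after renewed quantile normalization, and to 0.06, 0.11 and 0.04 without WT replicate 1, WT replicate 2 and ara6-1 replicate 2. ROXY1 turned to 0.04 after renewed quantile normalization and to 0.10 without WT replicate 2, and ROXY2 to -0.12 without WT replicate 2 and -0.10 without ara6-1 replicate 3 (range -0.12 to 0.22 over the 6 arrays left out). The cause was not tested. The median of -0.45 over the 10 genes was -0.52 to -0.39 with single arrays left out, and -0.21 with a pseudocount of 16, which by its construction shrinks the differences of dim probe sets. The count of 4 separated genes was 4 to 7 with single arrays left out (7 without WT replicate 3), beside 11.3% to 15.7% of all probe sets, and 8 without WT replicate 3 and ara6-1 replicate 1 together, beside 23.0%, where fewer arrays need to be separated. Over the whole array 3 probe sets passed in limma, 2 to 4 with single arrays left out, 1 without those arrays together, 16 with a prior variance that follows intensity and 0 in the unmoderated test (2556 at an unadjusted p under 0.05).

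The replicate numbers were not taken as pairs. Deviations from the group means of same-numbered arrays correlated at -0.196, 0.174 and -0.15 across probe sets, and WT replicate 3 correlated best with ara6-1 replicate 1 (0.289). With the replicate block 2 probe sets passed over the whole array and the median over the 10 genes stayed at -0.45. Each member had 1 tested probe set that named it alone, so the alternatives on the choice of probe set could not be run.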
